A study of Mus musculus with 12 samples.

Results

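The genes described here are those of the mouse major histocompatibility complex (MHC), measured in bone marrow PreMegEs, the progenitors of megakaryocytes and erythroid cells. Every gene whose symbol starts with H2- was taken, together with B2m, Cd74, Ciita and Tap2, which gave 47 of the 41128 genes in the count table. By role, 27 belong to the class I heavy chain families (2 classical, 7 of the Q region, 6 of the T region and 12 of the M region), 2 are the class I partners B2m and Tap2, 4 are class II chains, 2 are the class II partners Cd74 and Ciita, 5 act in class II peptide exchange, 6 are classed here as pseudogenes, and H2-Ke6 sits in the complex and carries its name without being an MHC molecule.

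RNA-Seq was carried out on 4 groups of PreMegEs with 3 libraries each, all from adult C57BL/6 mice of 12 to 16 weeks, and cells of 3 mice were pooled for every library. WT PreMegEs came from wild type mice and were not separated further. P2- and P2+ PreMegEs came from Runx1 P1-GFP::P2-hCD4/+ mice, in which 1 Runx1 allele reports the distal promoter P1 by GFP and the proximal promoter P2 by human CD4, and were the hCD4-negative and hCD4-positive fractions of the same gate. KO PreMegEs came from mice labelled RUNX1C knockout, which lack the isoform made from P1 and for which the study used P1-GFP homozygotes. The 2 fractions therefore differ from WT by their reporter allele and by the hCD4 separation at once, and these cannot be told apart. Neither labels nor methods say whether the KO libraries were prepared and sequenced with the others, so genotype and processing cannot be told apart in KO and WT PreMegEs.

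MHC class I molecules are made of a polymorphic heavy chain and the light chain B2m, carry peptides that the TAP transporter brings into the endoplasmic reticulum, and are found on nearly all nucleated cells. MHC class II molecules are made of an alpha and a beta chain, are held by the invariant chain Cd74 until H2-DM exchanges its remnant for a peptide, and belong to dendritic cells, B cells and macrophages. Ciita is the transactivator of class II genes and Nlrc5 that of class I genes, and interferon gamma raises both systems.

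The promoters of 2 highly expressed class I members and of 2 members that differed between the reporter fractions are shown because class I and class II promoters are known for a shared set of short elements. The windows span 250 bases before to 50 bases after the RefSeq start on GRCm38.p6 and are written 5′ to 3′ along the gene. B2m lies at chr2:122147437-122147736 on the plus strand, H2-K1 at chr17:34000284-34000583 on the minus strand, H2-M3 at chr17:37269984-37270283 on the plus strand and H2-DMb1 at chr17:34152941-34153240 on the plus strand. Capitals mark CCAAT, known as the CCAAT box, and the letters TGACG, which form the core of a cyclic AMP response element. They also mark the interferon response element, in an exact form alone, as given below. Matches on either strand are marked, so that reverse complements are in capitals too.
B2m: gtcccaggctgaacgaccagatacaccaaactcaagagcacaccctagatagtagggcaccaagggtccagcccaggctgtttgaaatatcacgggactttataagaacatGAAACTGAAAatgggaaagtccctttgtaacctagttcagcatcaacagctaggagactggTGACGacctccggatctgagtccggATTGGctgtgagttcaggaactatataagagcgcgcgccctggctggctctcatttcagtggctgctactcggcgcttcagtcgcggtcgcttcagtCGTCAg
H2-K1: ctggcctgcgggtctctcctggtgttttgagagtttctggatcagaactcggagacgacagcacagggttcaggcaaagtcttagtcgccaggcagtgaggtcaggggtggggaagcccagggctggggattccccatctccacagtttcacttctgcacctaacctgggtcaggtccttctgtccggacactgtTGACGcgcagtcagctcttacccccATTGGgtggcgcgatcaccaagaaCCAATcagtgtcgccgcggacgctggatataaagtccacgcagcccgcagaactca
H2-M3: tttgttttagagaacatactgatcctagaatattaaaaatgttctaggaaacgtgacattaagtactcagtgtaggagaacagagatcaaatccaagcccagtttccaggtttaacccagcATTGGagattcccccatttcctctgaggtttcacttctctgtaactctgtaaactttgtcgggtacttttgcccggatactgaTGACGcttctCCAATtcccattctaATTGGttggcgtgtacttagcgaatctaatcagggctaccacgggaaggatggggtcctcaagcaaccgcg
H2-DMb1: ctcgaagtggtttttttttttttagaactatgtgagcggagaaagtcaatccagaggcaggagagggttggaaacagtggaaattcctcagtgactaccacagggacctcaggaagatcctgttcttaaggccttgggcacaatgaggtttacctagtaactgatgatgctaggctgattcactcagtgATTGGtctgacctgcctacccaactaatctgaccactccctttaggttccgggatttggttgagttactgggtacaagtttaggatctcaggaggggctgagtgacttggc

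In these windows H2-K1 and H2-M3 held TGACG followed by CCAAT on both strands, B2m held the interferon response element as GAAACTGAAA at position -139 from the start, TGACG at -78, CCAAT on the other strand at -53 and TGACG on the other strand at 44. Of the 3 motifs, H2-DMb1 held CCAAT alone, on the other strand at -61. In all, 35 such windows of 32 of the 47 genes were examined. None was used for H2-T24, H2-Q5, H2-Ab1, Tap2 and Ciita among others, and chromosome 18, which holds Cd74, was left out of the search. CCAAT was present in 31 of the 35 windows, against 37.4% of the 32851 windows of all genes, and TGACG in 14, against 20.8%. The interferon response element was searched for only in the form that B2m holds, with its middle bases free. This form was present in 3 windows (B2m, H2-T22 and H2-T23), against 3.44% of all windows. Other forms of the element were not searched for, so windows without a match, that of H2-K1 among them, are not shown to lack it. TGTGGT, the letters a RUNX factor binds, was present in 8 of the 35 windows, H2-DMb1 and H2-DMa among them, against 16.8% of all windows. The GATA motif AGATAA was present in 5, against 11.2%. One window can hold several motifs, and windows of paralogs share sequence, so these counts are not independent of each other.

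The libraries held between 10726098 and 14445026 counts (median 12284879), of which the 47 genes took between 0.424% and 0.585%. A count of 0 allows a level of up to 3 counts, which came to between 0.207 and 0.288 CPM (counts scaled to library size with edgeR's TMM method) and takes in counting error alone. Runx1 was at 369 CPM ± 15.6 (SD, n = 3) in WT, 211 ± 7.34 in P2-, 631 ± 24.2 in P2+ and 360 ± 20.4 in KO PreMegEs, and since its gene count covers both promoters it does not check the loss of RUNX1C. All 12 PreMegE markers examined, Kit and Gata1 among them, passed the filter on low counts. Replicate 2 of P2- and of P2+ PreMegEs stood apart, with Fos at 1327 and 903 CPM against 0.318 to 166 CPM in the others. Xist, the transcript of the inactive X chromosome, was at 0 and 5.18 CPM in these libraries against 713 to 2729 CPM in the 10 others, and its part in the results was not tested.

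Class I transcripts dominated the complex in PreMegEs. Per length, as RPKM over the exonic length of each gene, the order of means over the 12 libraries was led by the light chain B2m (between 1383 and 1901 RPKM), the classical heavy chains H2-K1 (393 to 549 RPKM) and H2-D1 (286 to 364 RPKM) and H2-Q6 of the Q region (114 to 195 RPKM). B2m lay above 99.9% of the 13188 expressed genes with a known length. The ranges of these 4 genes did not overlap those of their neighbours in the order, whereas H2-Q4, H2-T23 (the Qa-1 heavy chain), H2-Q7 and the transporter subunit Tap2 overlapped one after the other between 39.4 and 103 RPKM. From H2-Q5 (18.1 to 44.1 RPKM) downward, the range of every gene overlapped that of the next.

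The class II side was low, and its order was uneven. Per length, the peptide exchange genes H2-Ob, H2-DMa and H2-Oa had means of 13.5, 13.2 and 11.4 RPKM over the 12 libraries, above the class II chain H2-Ab1 at 8.05 RPKM. The range of H2-Ob lay above that of H2-Ab1, whereas those of H2-DMa and H2-Oa overlapped it. H2-DMb1, the other peptide exchange gene that was expressed, had a mean of 5.42 RPKM, below that of H2-Ab1 and with an overlapping range. The invariant chain Cd74 had a mean of 1.85 RPKM. The chains H2-Eb1 and H2-Aa had means of 0.691 and 0.648 RPKM, and Ciita one of 0.216 RPKM.

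**Figure D1:**
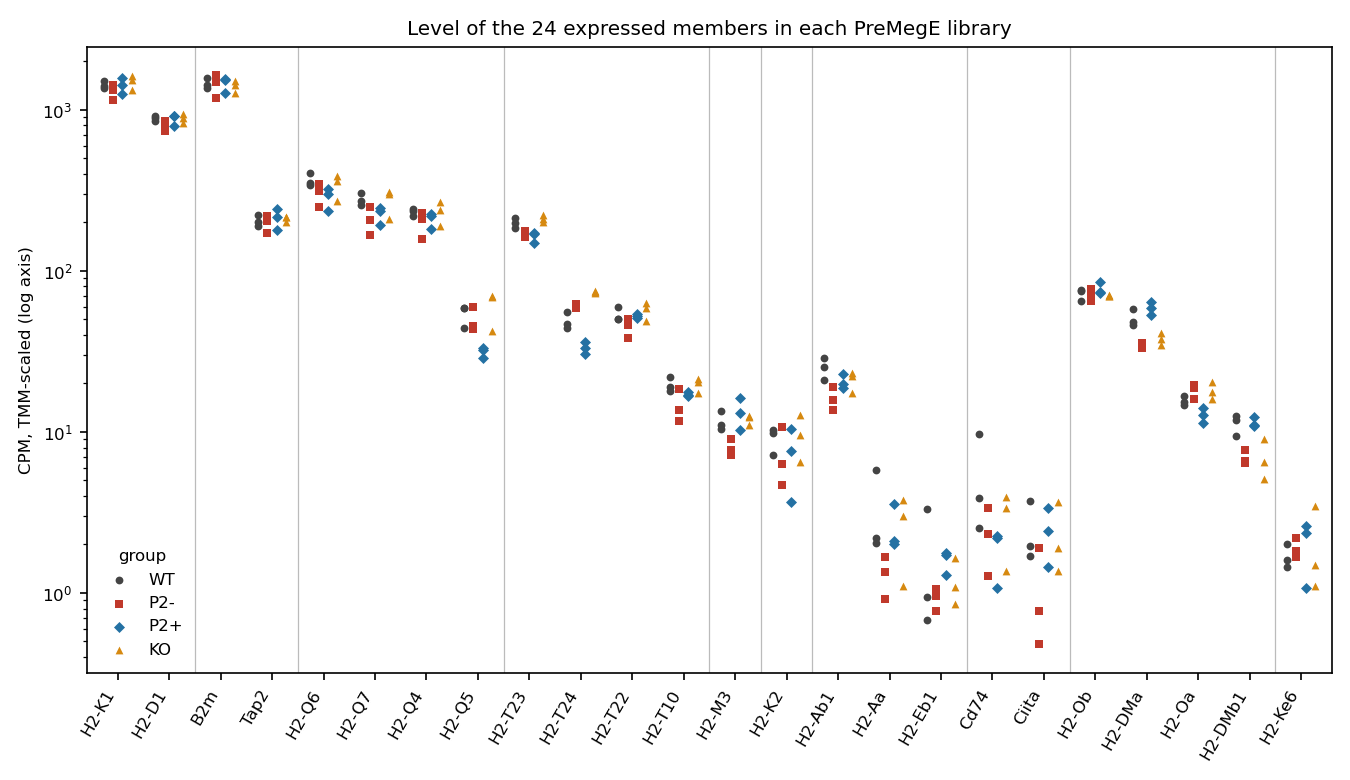
CPM (TMM-scaled, log axis) of the 24 expressed members, grouped by role with grey lines between roles, with 1 symbol a library and a colour for each of the WT, P2-, P2+ and KO groups. B2m, H2-K1 and H2-D1 lie highest and nearly level across the groups, while Cd74, H2-Aa, H2-Eb1 and Ciita lie below 10 CPM and scatter within groups.

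Of the 47 genes, 24 passed the filter (1 CPM or more in 3 or more of the 12 libraries), 16 had no count in any library and 19 were at or under 3 counts in all of them. The M region was nearly silent, with 10 of its 12 genes at 0 throughout and H2-M3, which presents N-formyl peptides, the 1 gene that passed. In the T region 4 of 6 genes passed (H2-T10, H2-T22, H2-T23 and H2-T24), and in the Q region 4 of 7 (H2-Q4, H2-Q5, H2-Q6 and H2-Q7). Of the 6 genes classed as pseudogenes H2-K2 alone passed, at between 3.69 and 12.7 CPM. H2-Q5 and H2-T10, counted with their regions, are annotated as polymorphic pseudogenes, as is H2-Bl, which did not pass. H2-Ea-ps, the I-E alpha gene that is defective in the H2 haplotype of C57BL/6 mice, had 0 counts in all 12 libraries.

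Some of these counts share sequence, and neither the strand setting nor the handling of reads with several matches is stated for the counting. Of the 75-base windows along the transcripts, 21.2% of those of H2-Q5 occurred in other genes, 17.9% for H2-Q6, 17.0% for H2-Q7, 18.5% for H2-T22, 16.0% for H2-T10 and 15.8% for H2-DMb1, the last shared with H2-DMb2. H2-Ke6, at between 1.07 and 3.46 CPM, shared 65.5% of its windows with a readthrough gene, and its value is uncertain. For H2-T24 the share was 0.459%, for H2-M3, H2-DMa, B2m and H2-Ab1 it was 0, and for H2-K1 and H2-D1 it was 3.10% and 5.40%.

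The P2+ and P2- fractions were compared to ask how the 2 kinds of PreMegE in the reporter mice differ. Each comparison was made between 3 and 3 libraries with edgeR's quasi-likelihood test over all genes that passed the filter in those 6 libraries, and a gene was called at a Benjamini-Hochberg adjusted p under 0.05. Of the 24 members tested, 3 were higher and 3 lower in P2+ PreMegEs, so that 6 of 24 were called where 37.1% of all 12836 genes tested were. The background was 20.1% for higher and 17% for lower genes. The median log2 fold change was 0.13 over the members and -0.02 over all genes. H2-DMa, H2-DMb1 and H2-M3 were higher, and H2-Oa, H2-Q5 and H2-T24 were lower. For 9 of the 24 members no P2+ library lay within the range of the P2- libraries or the reverse, against 49.9% of all genes.

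Both chains of H2-DM, the exchange factor that loads peptides onto class II molecules, were higher in P2+ PreMegEs. H2-DMa was at 53.4, 59.0 and 64.4 CPM in the P2+ libraries and at 35.7, 33.4 and 35.6 CPM in the P2- libraries. The groups lay well apart, with the lowest P2+ library above every P2- library. The log2 fold change was 0.77 (SE 0.10, edgeR's quasi-likelihood test, adjusted p = 0.000563). Exons of H2-DMa overlap those of Brd2 on the other strand over 360 bases, and Brd2 was at 353, 454 and 368 CPM in the P2+ and 421, 631 and 442 CPM in the P2- libraries, so that it was lower on average in P2+, with overlap.

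H2-DMb1, the beta chain, was at 12.3, 10.8 and 10.98 CPM in the P2+ libraries and at 6.37, 7.69 and 6.56 CPM in the P2- libraries, again without overlap. Its log2 fold change was 0.74 (SE 0.17, adjusted p = 0.00960 by edgeR). The near copy H2-DMb2, which did not pass the filter, had 19, 7 and 11 counts in the P2+ and 0, 1 and 1 counts in the P2- libraries. It was called when no filter was used, as 1 of 7 members called of 31 tested, against 24.4% of all genes in that fit. The 2 genes share sequence, so reads could be divided between them.

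H2-Oa, the alpha chain of H2-DO, which restrains H2-DM, went the other way. It was at 14.2, 12.7 and 11.4 CPM in the P2+ and at 18.6, 16.0 and 19.5 CPM in the P2- libraries, where all 3 values exceeded every P2+ value. The log2 fold change was -0.49 (SE 0.15, adjusted p = 0.0354 by edgeR). Its exons overlap BC051537 on the other strand over 321 bases, and that gene was at 5.70, 4.35 and 2.75 CPM in the P2+ and at 8.28, 8.74 and 8.96 CPM in the P2- libraries. The beta chain of H2-DO, H2-Ob, was at 77.4 CPM ± 6.75 (SD, n = 3) in P2+ and 70.9 ± 6.25 in P2- PreMegEs, a log2 difference of 0.14 (95% interval -0.08 to 0.36) that did not pass the test.

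Among class I genes the calls of this unpaired fit lay in nonclassical members. H2-T24, a heavy chain of the T region, was at 33.4, 36.2 and 30.3 CPM in the P2+ and at 62.4, 59.8 and 59.0 CPM in the P2- libraries. The 2 groups were widely separated, and the log2 fold change of -0.84 (SE 0.10, adjusted p = 0.000289 by edgeR) was the largest among the members called. H2-Q5, annotated as a polymorphic pseudogene, was at 28.8, 32.2 and 33.4 CPM in P2+ and at 43.3, 45.4 and 59.9 CPM in P2- libraries. Its log2 fold change was -0.64 (SE 0.14, adjusted p = 0.00687 by edgeR), while H2-Q7, which holds most of the sequence it shares, had 0.13 and an adjusted p of 0.530.

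H2-M3 was higher in P2+ PreMegEs, at 10.3, 16.2 and 13.0 CPM against 8.99, 7.21 and 7.69 CPM in P2- PreMegEs. The lowest P2+ and the highest P2- library lay close together. The log2 fold change was 0.74 (SE 0.21, adjusted p = 0.0211 by edgeR). The calls of H2-M3 and H2-Oa were the less secure of the 6 when single libraries were left out of the unpaired fit. Both were lost without replicate 2 of P2+, replicate 3 of P2+ or replicate 3 of P2-. H2-M3 was also lost without replicate 2 of P2-, and H2-Oa without replicate 1 of P2-. In these fits H2-M3 had log2 fold changes between 0.57 and 0.75, and H2-Oa between -0.48 and -0.41. With the replicate number as a block, a fit described below, H2-M3 (0.72, adjusted p = 0.00905 by edgeR) and H2-Oa (-0.49, adjusted p = 0.0149) were both called. With raw library sizes in place of TMM scaling 5 of the 6 were called, against 36.2% of all genes, and H2-Oa was lost (-0.46, adjusted p = 0.0507 by edgeR). With both replicate 2 libraries left out, 5 of the 6 members were called, against 37% of all genes, and H2-M3 had a log2 fold change of 0.51. H2-DMa, H2-DMb1, H2-Q5 and H2-T24 were called whichever library was left out.

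**Figure D2:**
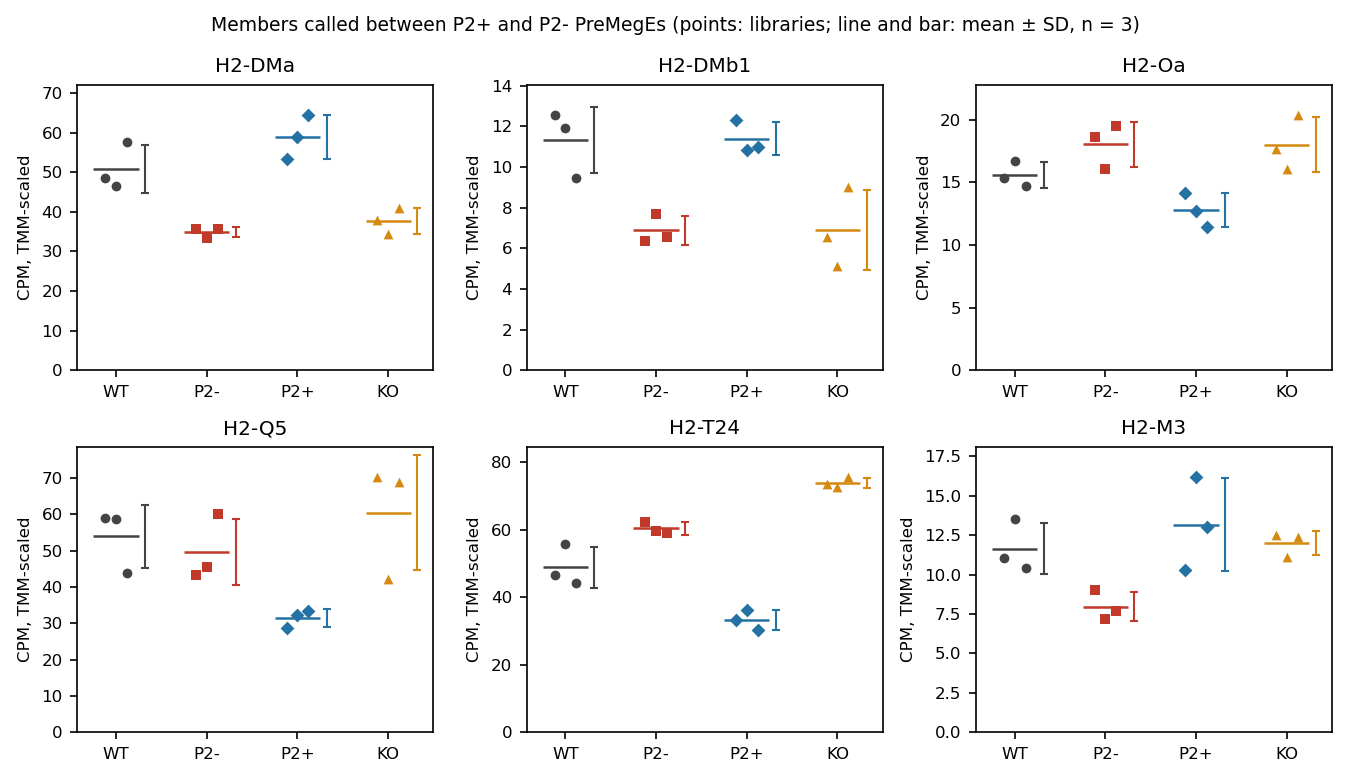
CPM (TMM-scaled, axis from 0) of the 6 members called between P2+ and P2- PreMegEs, with each library as a point and the mean and SD (n = 3) as line and bar for WT, P2-, P2+ and KO. H2-DMa and H2-DMb1 are low in P2- and KO, and H2-T24 lies in steps from P2+ through WT and P2- to KO with no overlap between neighbouring groups.

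The main class I machinery differed little between the fractions. B2m was at 1274, 1536 and 1545 CPM in P2+ and at 1189, 1499 and 1635 CPM in P2- libraries, and the groups overlapped throughout. H2-K1 was at 1253, 1416 and 1573 CPM in P2+ against 1153, 1328 and 1431 CPM in P2- libraries. H2-D1 was at 799, 910 and 912 CPM against 738, 832 and 855 CPM. In each of these the library of replicate 1 was the lowest of its fraction, as it was in both fractions for 10 of the 13 genes formed by B2m, Tap2 and the expressed class I heavy chains.

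Same-numbered libraries of the 2 fractions deviated together, so a fit with the replicate number as a block was also made. With the block 11 of 24 members were called, against 50.7% of all genes. H2-K1 then had a log2 fold change of 0.13 (adjusted p = 0.0209 by edgeR) and H2-D1 of 0.12 (adjusted p = 0.0309), so the rise of both in P2+ PreMegEs was small and called only when pairs were compared. Ciita (1.29, adjusted p = 0.0258), H2-Ab1 (0.36, adjusted p = 0.0348) and H2-T22 (0.24, adjusted p = 0.0469) were the other 3 members added by the block in edgeR, all higher in P2+. Ciita reached 1 CPM in all 3 P2+ libraries and in 1 of 3 P2- libraries, so it passed the filter through the group in which it was higher, and its call is given as a description. B2m stayed at 0.03 (adjusted p = 0.617) and Tap2 at 0.11 (adjusted p = 0.152).

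Between P2+ and WT PreMegEs, 2 of 24 members were called, both lower in P2+, against 16.5% of all genes called in either direction, 7.07% lower and 9.45% higher. H2-Q5 was at 59.0, 58.6 and 43.9 CPM in the WT libraries, above the 28.8 to 33.4 CPM of the P2+ libraries, with a log2 fold change of -0.77 (SE 0.13, adjusted p = 0.00270 by edgeR). H2-T24 was at 46.7, 55.7 and 44.1 CPM in the WT libraries, also above every P2+ library. Its log2 fold change was -0.55 (SE 0.12, adjusted p = 0.0119 by edgeR), and without replicate 2 of WT it was -0.44 and no longer called.

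Other nonclassical heavy chains were measured lower in P2+ than in WT PreMegEs but did not pass the test. H2-Q6 had a log2 difference of -0.36 (95% interval -0.61 to -0.10, adjusted p = 0.0596 by edgeR), H2-Q7 one of -0.30 (adjusted p = 0.0853) and H2-T23 one of -0.28 (adjusted p = 0.0588). These 3 passed without replicate 2 of P2+, when 5 members were called against 19.1% of all genes, and under DESeq2, which called 6 against 19.2%. P2+ and WT libraries were fully separated for 8 of 24 members, against 35.5% of all genes. H2-DMa was at 48.4, 46.4 and 57.8 CPM in WT libraries, within reach of P2+, and its difference of 0.22 did not pass (adjusted p = 0.208).

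Between P2- and WT PreMegEs, 3 of 23 members were called, all lower in P2-, against 16.5% of all genes called in either direction, 9.6% lower and 6.85% higher. H2-DMa fell by 0.54 on the log2 scale (SE 0.11, adjusted p = 0.00700 by edgeR), with all 3 P2- libraries below the lowest WT library. H2-DMb1, at 12.5, 11.9 and 9.47 CPM in WT libraries, fell by 0.72 (SE 0.19, adjusted p = 0.0302 by edgeR). H2-Ab1, the beta chain of the class II molecule I-A, was at 28.7, 25.3 and 20.9 CPM in WT and at 13.7, 19.1 and 15.8 CPM in P2- libraries, and fell by 0.62 (SE 0.17, adjusted p = 0.0298 by edgeR).

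The calls of H2-DMb1 and H2-Ab1 against WT were each lost without replicate 1 or 3 of P2- or replicate 1 or 2 of WT. H2-DMa passed whichever library was left out. It was the 1 member called without replicate 1 of P2-, against 12.3% of all genes, or without replicate 1 of WT, against 8.5%. In the fits that lost them H2-DMb1 lay between -0.68 and -0.64 and H2-Ab1 between -0.62 and -0.51. Over the 23 members the median log2 fold change was -0.25, against 0.01 over all genes, and 12 members had an unadjusted p under 0.05, against 30.5% of all genes. H2-T24, H2-Oa and H2-Ke6 had values above 0, that of H2-T24 being 0.31 (95% interval 0.08 to 0.53, adjusted p = 0.0635 by edgeR) with all P2- libraries above all WT libraries. P2- and WT libraries were fully separated for 9 of 23 members, against 35.1% of all genes.

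Between KO and WT PreMegEs, 3 of 24 members were called, against 14.9% of all genes, and the median log2 fold change was -0.02 over the members and -0.0029 over all genes. H2-T24 was higher in KO, where it was at 73.4, 72.6 and 75.5 CPM, above every other library of the series. Its log2 fold change against WT was 0.59 (SE 0.09, adjusted p = 0.000247 by edgeR), and the call held whichever library was left out. The background for higher genes was 6.18%.

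H2-DMa and H2-DMb1 were lower in KO than in WT PreMegEs, where the background for lower genes was 8.76%. H2-DMa was at 37.9, 34.5 and 41.0 CPM in KO libraries, all below the lowest WT library, and fell by 0.44 on the log2 scale (SE 0.11, adjusted p = 0.00952 by edgeR). H2-DMb1 was at 6.55, 5.13 and 9.01 CPM in KO libraries and fell by 0.72 (SE 0.22, adjusted p = 0.0313 by edgeR), with its highest KO library close under the lowest of WT. Without replicate 2 of KO neither passed, with -0.38 for H2-DMa and -0.55 for H2-DMb1. This left 1 member called, against 11.2% of all genes in that fit. H2-DMb1 was also lost without replicate 1 of KO (-0.68), replicate 1 of WT (-0.64) or replicate 2 of WT (-0.68). KO and WT libraries were fully separated for these 3 members of 24, against 31.7% of all genes.

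**Figure D3:**
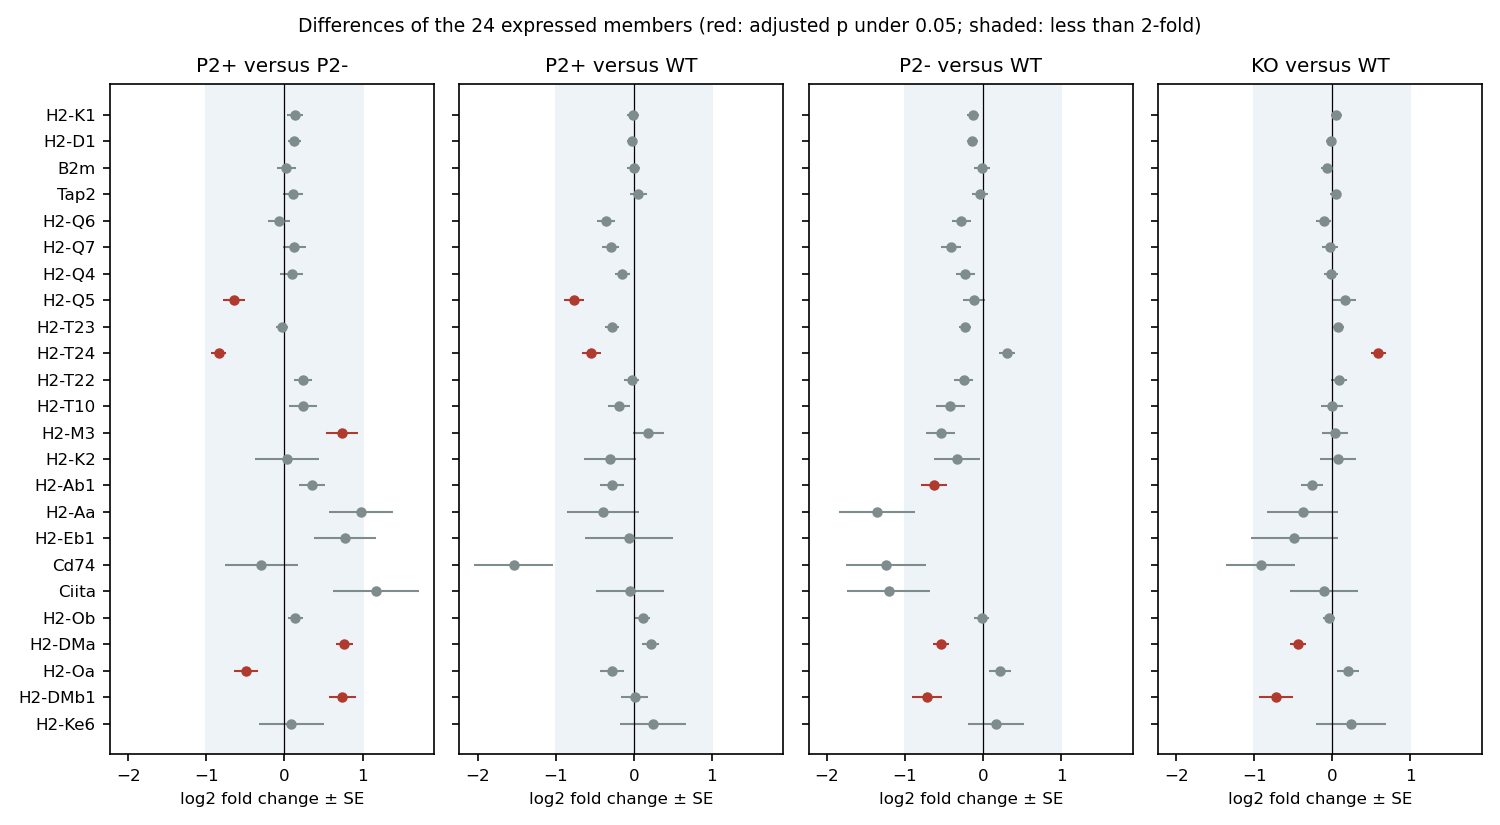
Log2 fold change ± SE of the expressed members in each of the 4 comparisons, 1 panel each, in red where edgeR's adjusted p was under 0.05 and with changes of less than 2-fold shaded. All red points lie within the shaded band, and the points farthest from 0, of Cd74, H2-Aa and Ciita, have wide bars and are not red.

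The 3 comparisons with WT share its libraries, and P2+ and P2- PreMegEs each enter 2 comparisons, so the values of a gene across comparisons are not independent. For H2-T24 they were -0.84 between P2+ and P2-, -0.55 between P2+ and WT, 0.31 between P2- and WT and 0.59 between KO and WT. For H2-DMa the corresponding values were 0.77, 0.22, -0.54 and -0.44, and for H2-DMb1 they were 0.74, 0.01, -0.72 and -0.72. KO and P2- PreMegEs were not compared with each other in a test. In CPM, H2-DMa was at 37.8 ± 3.29 (SD, n = 3) in KO and 34.9 ± 1.30 in P2- PreMegEs, and H2-DMb1 at 6.90 ± 1.96 and 6.87 ± 0.712.

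At the 2-fold minimum that the study used, no member was called in any of the 4 comparisons by edgeR's quasi-likelihood test with the filter and without the block, where 12.7% of all genes passed between P2+ and P2-, 3.84% between P2+ and WT, 4.68% between P2- and WT and 3.41% between KO and WT. With an unadjusted p under 0.05 in place of the adjusted one, 0, 1, 3 and 0 members passed in that order, against 13.8%, 5.21%, 6.17% and 4.21% of all genes. At 2-fold, Cd74 between P2+ and WT and H2-Aa between P2- and WT were called by DESeq2, by edgeR's exact test and without a filter. For H2-Aa a limit is given below. Ciita between P2+ and P2-, with the limit given above, was called with the block. DESeq2 called no member at 2-fold in the other 2 comparisons. Without a filter Cd74 was also called between P2- and WT (-1.24, adjusted p = 0.0430 by edgeR), where with the filter its value went from -1.24 (adjusted p = 0.129) to -0.50 (adjusted p = 0.576) without replicate 1 of WT. B2m, H2-K1, H2-D1 and Tap2 had 16 log2 fold changes over the 4 comparisons, between -0.14 and 0.13, with 95% intervals that reached from -0.31 to 0.40 and a smallest adjusted p of 0.240 by edgeR without the block. With the block H2-K1 and H2-D1 passed between P2+ and P2-, as given above.

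Cd74, H2-Aa and Ciita were the 3 members with a log2 fold change over 1 in size in any comparison, none of which passed the unpaired test, and H2-Eb1 was as scattered. Cd74 was at 9.70, 2.53 and 3.86 CPM in WT, 2.31, 3.36 and 1.27 CPM in P2-, 2.26, 2.21 and 1.07 CPM in P2+ and 3.93, 1.37 and 3.37 CPM in KO libraries. Replicate 1 of WT lay far above all others. The log2 difference between P2+ and WT was -1.54 (95% interval -2.66 to -0.42, adjusted p = 0.0634 by edgeR), and -0.79 (adjusted p = 0.314) without replicate 1 of WT. It was called by edgeR's exact test (adjusted p = 0.0261), by DESeq2 (adjusted p = 0.0126), without a filter (adjusted p = 0.0105 by edgeR) and without replicate 2 of WT (-1.87, adjusted p = 0.0400 by edgeR).

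H2-Aa, the alpha chain of I-A, was at 5.82, 2.20 and 2.04 CPM in WT, 1.67, 1.35 and 0.917 CPM in P2-, 2.09, 2.002 and 3.58 CPM in P2+ and 3.75, 1.11 and 3.00 CPM in KO libraries. All P2- libraries lay below all WT and all P2+ libraries. The log2 difference between P2- and WT was -1.36 (adjusted p = 0.0834 by edgeR), and -0.70 (adjusted p = 0.389) without replicate 1 of WT. It was called by edgeR's exact test (adjusted p = 0.0496), by DESeq2 (adjusted p = 0.0494) and without a filter (adjusted p = 0.0413 by edgeR). The lowest P2- library lay under 1 CPM, so where the filter was used H2-Aa needed the WT libraries, where it was higher, to pass. Its calls are given as a description. H2-Eb1, the beta chain of I-E, was at 3.33, 0.676 and 0.947 CPM in WT and between 0.769 and 1.76 CPM in the 9 other libraries.

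Ciita, the class II transactivator, was at 3.74, 1.69 and 1.97 CPM in WT, 1.91, 0.480 and 0.776 CPM in P2-, 3.35, 1.45 and 2.44 CPM in P2+ and 3.67, 1.37 and 1.91 CPM in KO libraries. Replicate 1 was the highest library in each of the 4 groups. The log2 difference between P2+ and P2- was 1.18 (95% interval -0.07 to 2.43, adjusted p = 0.127 by edgeR), and without replicate 1 of P2- it was 1.90 and called (adjusted p = 0.0366). It was 0.86 without replicate 2 of P2- (adjusted p = 0.257 by edgeR), 0.88 without replicate 1 of P2+ (adjusted p = 0.341) and 0.98 without replicate 3 of P2- (adjusted p = 0.289). H2-Ab1 alone of the class II chains was above 10 CPM throughout. It was at 18.8, 22.9 and 19.9 CPM in P2+ and at 23.3, 17.4 and 22.4 CPM in KO libraries.

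Markers of cells that carry class II were measured beside these genes, since in sorted bulk samples fewer cells of a type and less RNA per cell cannot be told apart. The gate for PreMegEs, as the study's antibody panel gives it, took lineage markers (Cd3e, B220, Gr1 and Cd11b among them) and Fc gamma receptors as negative, and so selects against mature cells of several of these types. The class II chains and Cd74 summed to 47.5, 30.8 and 27.8 CPM in WT, 18.6, 24.6 and 19.3 CPM in P2-, 25.1, 29.3 and 25.9 CPM in P2+ and 32.7, 20.7 and 29.8 CPM in KO libraries. The 11 monocyte and macrophage markers found in the table summed to between 117 and 192 CPM in WT, 42.7 and 71.2 in P2-, 211 and 253 in P2+ and 74.1 and 89.8 in KO libraries. Lyz2 was the largest part of that sum, and without it replicate 1 of WT and replicate 1 of P2+ stood out at 95.3 and 77.4 CPM against 9.38 to 35.3 CPM in the 10 other libraries.

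The 10 B cell markers summed to between 20.4 and 34.9 CPM in WT, 10.8 and 13.8 in P2-, 28.2 and 55.6 in P2+ and 16.7 and 19.3 in KO libraries, with Cd79b the highest of them in each library. The dendritic cell markers without Zbtb46, which alone reached 47.0 CPM in P2- PreMegEs, summed to 7.76, 2.96 and 3.13 CPM in WT, 1.83, 0.384 and 0.282 CPM in P2-, 10.6, 3.94 and 3.05 CPM in P2+ and 4.63, 1.45 and 2.37 CPM in KO libraries. Xcr1 and Batf3 were at or under 3 counts in every library. Nkg7 was at between 219 and 232 CPM in WT, 88.4 and 126 in P2-, 170 and 254 in P2+ and 96.6 and 99.8 in KO libraries, and was lower than in WT in P2- (-1.07, adjusted p = 0.000232 by edgeR) and in KO (-1.20, adjusted p = 7.74e-10). The 9 other T and NK cell markers summed to between 0.564 and 6.79 CPM, with Trac, Cd3g and Cd3d at or under 3 counts. The mast cell and basophil markers summed to between 84.3 and 137 CPM in P2+, 24.5 and 28.3 in P2-, 27.9 and 47.9 in WT and 47.3 and 64.2 in KO libraries, with Cma1 and Tpsb2 at 0, so that the P2+ libraries lay above all others. The sums of B cell, dendritic (without Zbtb46) and monocyte markers were lowest on average in P2- PreMegEs, as were the class II sums. These marker sums were highest on average in P2+ PreMegEs, whereas the class II sums were highest in WT. With Zbtb46 the dendritic sum was not lowest in P2-, at between 29.4 and 48.8 CPM against 19.4 to 20.5 in WT and 4.04 to 13.4 in P2+ libraries. The part of such cells in the class II values was not tested.

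**Figure D4:**
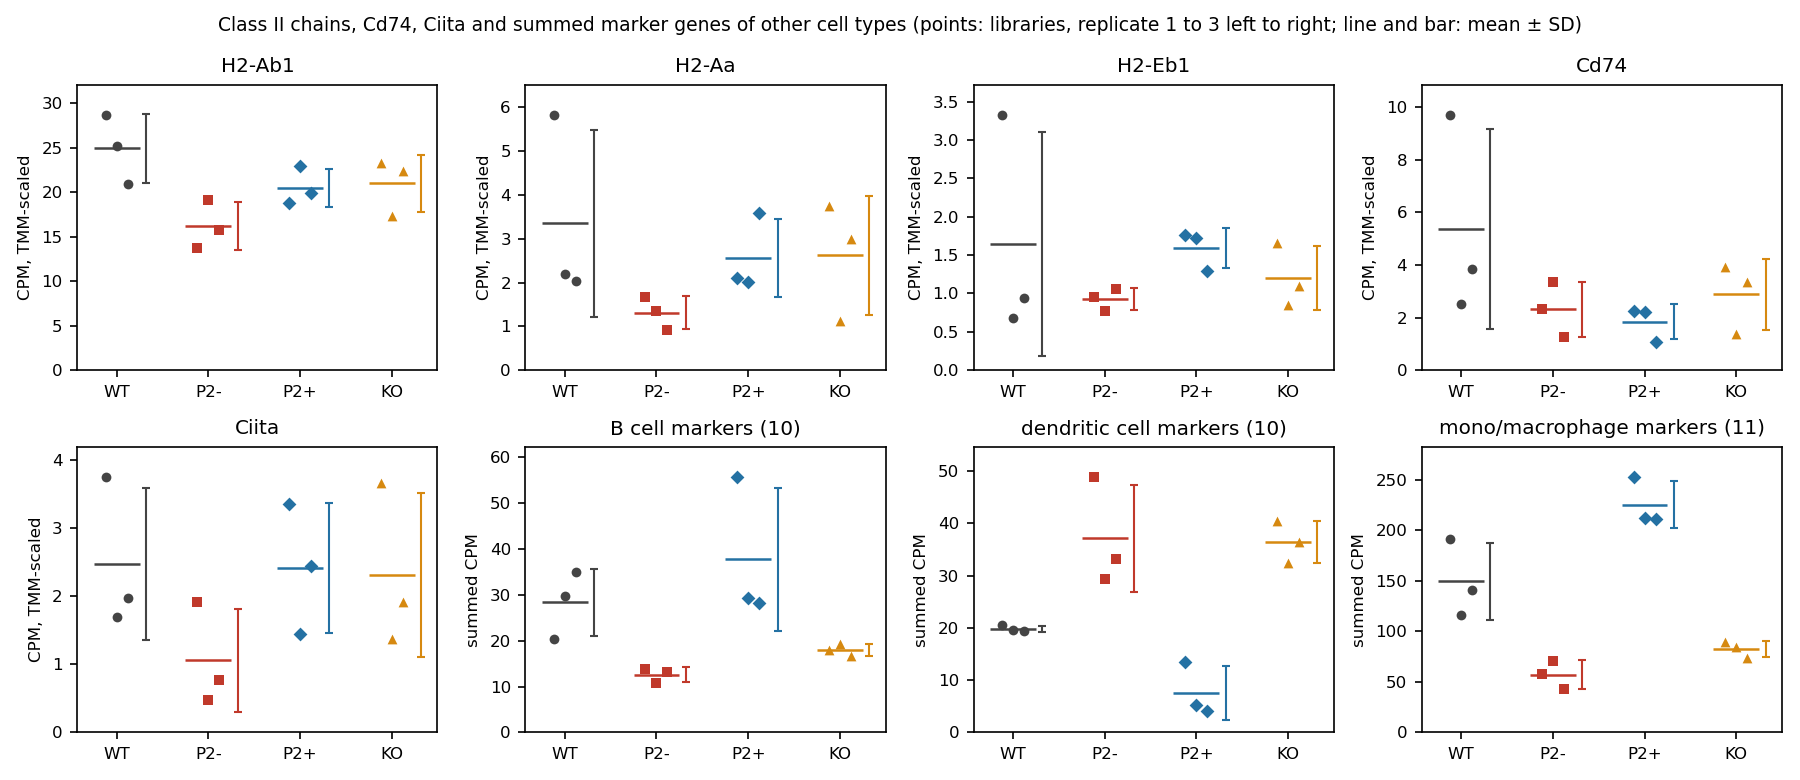
CPM (TMM-scaled, axes from 0) of H2-Ab1, H2-Aa, H2-Eb1, Cd74 and Ciita and summed CPM of the B cell, dendritic cell and monocyte and macrophage markers, with libraries as points and mean and SD (n = 3) as line and bar in each group. Replicate 1 of WT is the highest library for H2-Ab1, H2-Aa, H2-Eb1, Cd74 and Ciita, and the dendritic sum, Zbtb46 included, lies between 29.4 and 48.8 CPM in P2-, where it is mostly Zbtb46, and between 4.04 and 13.4 CPM in P2+, where it is not.

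The genes that serve both classes of molecule were examined as lists, to be read against the share of all genes called, which was 37.1% between P2+ and P2-, 16.5% both between P2+ and WT and between P2- and WT, and 14.9% between KO and WT. Of 13 genes of class I loading and processing, 1 was higher and 2 were lower in P2+ than in P2- PreMegEs. These were Pdia3 (log2 fold change 0.26, adjusted p = 0.0390 by edgeR), a disulfide isomerase of the loading complex, the proteasome activator subunit Psme2 (-1.34) and the chaperone Canx (-0.25). Nlrc5, the class I transactivator, was the 1 gene of the list called between P2+ and WT, where it was lower (-0.45, adjusted p = 0.0279 by edgeR). In CPM it was at 98.1, 97.0 and 77.7 in WT, 63.1, 69.1 and 95.5 in P2-, 59.6, 62.7 and 77.1 in P2+ and 108, 69.7 and 106 in KO libraries. Between P2- and WT the immunoproteasome subunit Psmb9 was lower (-0.30) and Canx higher (0.24), and between KO and WT none of the 13 was called.

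Of the genes of class II regulation and processing, 1 was higher and 2 were lower of 10 tested between P2+ and P2- PreMegEs. Nfya, a subunit of the factor that binds CCAAT, was higher (0.29), and the regulatory factor subunit Rfxap (-0.46) and the protease Ctsl (-1.36) were lower. Ctsl was also the 1 gene of 10 called between P2+ and WT, where it fell by 1.07 on the log2 scale. None of 9 was called between P2- and WT. Between KO and WT, Ifi30, a thiol reductase of the lysosome, was lower (-0.87, adjusted p = 0.0456 by edgeR), as 1 of 9.

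Among class I-like genes encoded outside the complex, 4 were higher and 1 lower of 7 tested in P2+ than in P2- PreMegEs. Hfe, a regulator of iron uptake, and the endothelial protein C receptor Procr reached 1 CPM in P2+ libraries alone of the 2 fractions, so both passed the filter through the group in which they were higher, and the count over the list is given as a description. Fcgrt, the neonatal Fc receptor, was at 3.85, 5.18 and 6.71 CPM in the P2+ and at 1.83, 1.15 and 0.847 CPM in the P2- libraries. Its log2 fold change was 2.05 (adjusted p = 0.00297 by edgeR). The lowest P2- library lay under 1 CPM, so Fcgrt also needed the P2+ libraries, where it was higher, to pass the filter. Its call is given as a description. The NKG2D ligand Ulbp1 was at 14.5, 14.6 and 9.23 CPM in the P2+ and at 8.28, 6.34 and 4.16 CPM in the P2- libraries, again without overlap, with a log2 fold change of 1.04 (adjusted p = 0.0193 by edgeR).

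The interferon receptors and their signalling genes were all expressed, and 1 was higher and 4 were lower of 14 in P2+ than in P2- PreMegEs. Ifngr1, the ligand-binding chain of the interferon gamma receptor, was at 161, 184 and 155 CPM in P2+ and at 463, 381 and 442 CPM in P2- libraries. The groups lay far apart, and its log2 fold change was -1.35 (adjusted p = 1.91e-05 by edgeR). Against WT, at 373, 355 and 401 CPM, it fell by 1.17 in P2+ PreMegEs. In KO against WT PreMegEs, 5 of the 14 were higher and none lower, against 6.18% and 8.76% of all genes, among them Ifngr2 (0.67), Ifnar2 (0.31) and Irf9 (0.26), and the list's median log2 fold change was 0.12.

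Interferon-stimulated genes were called in both directions. Of 20 tested between P2+ and P2- PreMegEs, 5 were higher and 3 lower, against 20.1% and 17% of all genes, so the share was near the background, with Ifit2 (0.95) and Ifitm3 (1.05) among the higher and Irf7 (-1.06) and Irgm1 (-0.83) among the lower. Between P2+ and WT 1 was higher and 3 were lower of 21, and between P2- and WT 1 was higher and 3 were lower of 22. Mx1, among those lower in P2+ than in WT, reached 1 CPM in WT libraries alone of these 2 groups. It thus passed the filter through the group in which it was higher, and the count between P2+ and WT is given as a description. In KO against WT PreMegEs, 3 of 22 were higher, with Irf7 at 0.79 and Irgm1 at 0.39, and 2 were lower, Ifitm3 at -0.59 and Ifit2 at -0.32. The medians of the list over the 4 comparisons lay between -0.17 and 0.24.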

How the data were processed

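RNA-Seq libraries were made from PreMegEs sorted from adult mouse bone marrow, with 3 libraries in each of the WT, P2-, P2+ and KO groups, taken from the labels. The authors aligned strand-specific paired poly(A) reads to GRCm38 with Bowtie2 and assigned them to Ensembl genes with featureCounts. The resulting whole-number counts were deposited as they were, not normalized. Strand setting and multi-mapped reads are not described in the sources used here.

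From these counts, genes that reached 1 CPM in 3 or more of the 6 libraries of a comparison were tested with edgeR 4.0.16 (R 4.3.3), using TMM scaling, glmQLFit and glmQLFTest on the group alone, and Benjamini-Hochberg adjustment over all genes tested, with calls at an adjusted p under 0.05. Intervals are 95%. Levels are CPM scaled by TMM over the 12 libraries, and RPKM is that CPM per kilobase of exonic length in GENCODE vM21, in which all 47 members were found. DESeq2 1.42.0 was an alternative, beside other scalings, no filter, edgeR's exact test, 1 fit over all groups, a replicate block, a 2-fold minimum and leaving out libraries. The procedure was tested on simulated data. Nothing beyond the pooling of 3 mice a library says how replicates were separated, so p-values measure the spread between these pools.

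Deviations of same-numbered P2+ and P2- libraries from the means of their groups correlated over genes at 0.386, 0.572 and 0.405, so the pairing was taken from the data and not from the labels. No pairing as close was found in the comparisons with WT. Every member at 1 CPM or more in at least 3 of the 12 libraries is named, and up to 4 genes of each other list, those with the smallest p, except that some are not reported here. Members and lists were chosen with earlier results of these data known.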

Additional observations from a re-analysis of the deposited data

How the results depend on the processing

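No member that was called, or whose log2 difference reached 0.5 in either direction, changed direction under the alternatives. Smaller differences were not followed under each alternative, and that of H2-K2 between P2+ and P2- went from 0.03 to -0.0022 with the replicate block. Between P2+ and P2- PreMegEs 6 members were called (37.1% of all genes were called in that fit), and 5 with raw library sizes (36.2%), where H2-Oa was lost. Without a filter 7 of 31 were called (24.4%), and with any 1 library left out between 4 and 6 (28.5% to 34.6%). Between P2+ and WT 2 were called, 4 with raw library sizes (16.5% of all genes were called in that fit), 6 without a filter (12.4%) and 6 by DESeq2 (19.2%). With any 1 library left out 2 to 5 were called (9.49% to 19.1%). Between P2- and WT 3 were called, 5 with raw library sizes (15.5%), 7 of 31 without a filter (12.4%) and 6 by DESeq2 (18.9%). In 1 fit over all groups 5 were called (19.5%), and with any 1 library left out 1 to 4 (8.5% to 17.3%). Between KO and WT 3 were called, and 1 to 3 with any 1 library left out (9.41% to 13.1%). Without a filter 4 of 30 were called (11.7%), Cd74 being added (-0.91, adjusted p = 0.0214 by edgeR). With the filter Cd74 had -0.92 or, without replicate 1 of WT, -0.17. The 2-fold minimum, set on the unpaired quasi-likelihood fit, brought the count to 0 in each comparison. The cause of these shifts was not tested.

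With the replicate number as a block, 11 members were called between P2+ and P2- (50.7% of all genes) and 3 between P2+ and WT (14.7%). In such a fit 1 was called between P2- and WT (H2-DMa, 11.5%) and 3 between KO and WT (16.4%). Same-numbered libraries correlated at 0.159, -0.016 and -0.025 between P2+ and WT, at 0.070, -0.039 and -0.085 between P2- and WT and at 0.158, 0.023 and 0.070 between KO and WT, so that the numbers pair no samples there.

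With 3 libraries a group, log2 differences of the low genes Cd74, H2-Aa, H2-Eb1 and Ciita had intervals of more than 1 unit, and small differences of these genes were not detectable.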
